A study of Mus musculus with 32 samples.

Results

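The regions described here are DNase-accessible sites of mouse liver that held at least 2 peaks of the glucocorticoid receptor (GR). They were chosen by the overlap of deposited lists of positions: an accessible site of the dexamethasone DNase-seq list was taken where it shared 1 bp or more with at least 2 intervals of the GR list. Of 63470 unique dexamethasone sites, 652 (1.03%) met this rule, and they are called multi-GR sites below. A further 9938 sites held exactly 1 GR peak and are called single-GR sites, and 52880 held none. Multi-GR sites made up 6.16% of the 10590 sites with any GR peak (95% Wilson interval 5.71 to 6.63%), and their 1332 GR peaks were 11.4% of the 11666 in the GR list.

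GR is a nuclear receptor that moves to the nucleus when it binds a glucocorticoid, and there it attaches to DNA response elements in enhancers and promoters. DNase I cuts DNA most readily where nucleosomes are displaced, so a DNase-hypersensitive site marks a stretch of DNA that proteins can reach. C/EBPβ is a bZIP transcription factor abundant in hepatocytes, and together with its relatives it occupies many liver enhancers. Dexamethasone is a synthetic GR agonist, and removal of the adrenal glands takes away the endogenous hormone.

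The lists came from livers of male C57BL/6 mice of 8 weeks, all adrenalectomized. Livers were taken 1 h after an injection of 300 ul that held dexamethasone as a cyclodextrin complex at 1 mg/kg, or the vehicle. DNase-seq and C/EBPβ ChIP-seq each have a dexamethasone list and a vehicle list, and the single GR list has no treatment in its name. The labels give 2 samples for each assay and treatment, but there was 1 list per condition and no value per sample, so differences between treatments had no replicate check. The p-values below compare classes of sites within these lists, and sites are not replicates of a treatment. The lists hold positions only, on mouse build mm9, with no peak height or coverage, so the depth behind each site is unknown. Positions are printed as the lists give them, and whether they count from 0 or 1 is not stated there. Samples with adenovirus, and RNA polymerase II and input samples, were not analysed here.

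Most multi-GR sites held 2 GR peaks: 624 (95.7%) had 2, and 28 (4.29%) had 3. They were wide, with a median of 1369.5 bp (quartiles 1101 and 1717 bp, range 494 to 8347 bp), against a median of 760 bp for single-GR sites and 562 bp for sites without GR. Sites with 3 GR peaks had a median width of 2395.5 bp. The share of sites with several GR peaks climbed with width: it was 0.913% of sites of 750 to 1000 bp (83 of 9092), 6.22% at 1000 to 1500 bp (307 of 4936), 18.2% at 1500 to 2000 bp (170 of 932), 23.9% at 2000 to 3000 bp (59 of 247) and 43.9% at 3000 bp or more (18 of 41). A wider interval overlaps more of anything, and width and GR number both entered the choice of these sites, so these values are a description with no test.

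Every GR interval was 150 bp wide and none overlapped another. Over 680 neighbouring pairs inside multi-GR sites, the distance between GR centres had a median of 480.5 bp (quartiles 322 and 701.25 bp), and ran from 151 to 3573 bp. There were 36 pairs (5.29%) closer than 200 bp and 106 (15.6%) at 200 to 300 bp. A further 222 (32.6%) were 300 to 500 bp apart, 260 (38.2%) were 500 to 1000 bp apart, and 56 (8.24%) were 1000 bp or more apart. Intervals of 150 bp that do not overlap cannot have centres closer than 150 bp, so the class under 200 bp is narrower than the others.

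The flanks of accessible DNA beyond the outer GR peaks were close in length to those around a lone GR peak in single-GR sites of all widths. Those single-GR sites were narrower as a class and were not matched in width, so the values are a description with no test. The first GR centre lay a median of 383.5 bp from the start of a multi-GR site, and the last a median of 384.5 bp from its end. In single-GR sites the GR centre lay a median of 364 bp from the start. With the span between the outer GR centres taken off, multi-GR sites had a median of 796 bp left (quartiles 674.75 and 994.75 bp), against the whole median width of 760 bp of single-GR sites. The GR span took a median share of 0.371 of the width of a multi-GR site.

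Whether neighbouring GR peaks shared a site went with their distance. All 143 pairs of neighbouring GR peaks of the genome within 300 bp lay in a single accessible site, as did 365 of 369 (98.9%) within 500 bp. Within 1000 bp, 625 of 845 pairs (74.0%) lay in a single site, 195 (23.1%) in 2 different sites, and 25 (2.96%) had at least 1 peak outside the dexamethasone list. Pairs in different sites thus occurred among the spacings of over 300 bp alone.

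**Figure D1:**
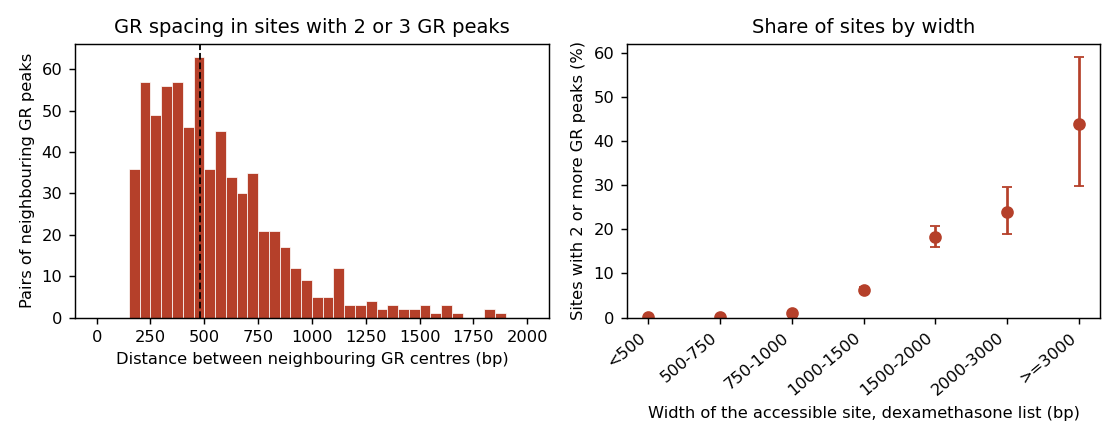
Left, number of neighbouring GR pairs (vertical axis) by the distance between their centres in bp (horizontal axis, 50-bp steps; distances over 2000 bp are not drawn), with the median of 480.5 bp dashed. Right, percentage of dexamethasone sites that held 2 or more GR peaks (vertical axis) by width class in bp, with 95% Wilson intervals; the share was 43.9% at 3000 bp or more.

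The rule has a sharp edge, and few sites sat on it. In 8 multi-GR sites a GR peak overlapped by less than its 150 bp. The least overlap was 46 bp at chr2:167419756-167420562, followed by 63 bp at chr14:8871095-8872118 and 74 bp at chr4:144614768-144615772. Just outside, the single-GR sites with the nearest further GR peak were chr11:120693251-120693899, with a GR peak 5 bp beyond its edge, chr15:100296410-100297334 with one 32 bp away, and chr17:28652695-28653326 with one 35 bp away. Another GR peak lay within 200 bp of the edge of 13 single-GR sites and within 1000 bp of 1035.

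The 10 sites placed first by number of GR peaks and then by width all held 3. They differed in how much of the site was already accessible in the vehicle list and in where C/EBPβ lay. The widest, chr12:105579325-105587672 (8347 bp), overlapped no vehicle site at all. Its GR centres lay 3180, 4685 and 5058 bp from its start, and its single C/EBPβ peak belonged to the dexamethasone list and overlapped the middle GR peak. No vehicle C/EBPβ peak was listed there.

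At chr15:38496764-38501070 (4306 bp), 2 vehicle sites covered all 3 GR peaks. The dexamethasone list had 4 C/EBPβ peaks there and the vehicle list 3, and the added one overlapped the middle GR peak. At chr3:97412322-97415924 (3602 bp), all 3 GR peaks lay in vehicle sites and neither list had a C/EBPβ peak. The same lack of C/EBPβ held for the 5103-bp site of chromosome 18, where 3 vehicle sites lay under it and covered 2 of its GR peaks.

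Some other large sites, though not all, were nearly as wide without the drug. The site at chr19:23208222-23211577 was 3355 bp wide in the dexamethasone list and 3341 bp in the vehicle list, with 2 C/EBPβ peaks in each list. At chr2:164246578-164249726 the widths were 3148 bp with dexamethasone and 3005 bp with vehicle, and the C/EBPβ peaks numbered 4 and 3 in the same order of lists. A neighbour on the same chromosome, chr2:164269195-164272091 (2896 bp), also held 3 GR peaks, and a C/EBPβ peak found in both lists touched its first pair of GR peaks. At chr11:101221915-101224968 (3053 bp) the 2 C/EBPβ peaks of each list overlapped none of the 3 GR peaks. That site overlapped 2 vehicle sites, which covered 1 of its GR peaks. The last sites of the 10, chr8:25683372-25686265 (2893 bp) and chr4:44993919-44996789 (2870 bp), each had 2 C/EBPβ peaks with dexamethasone and 1 with vehicle.

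**Figure D2:**
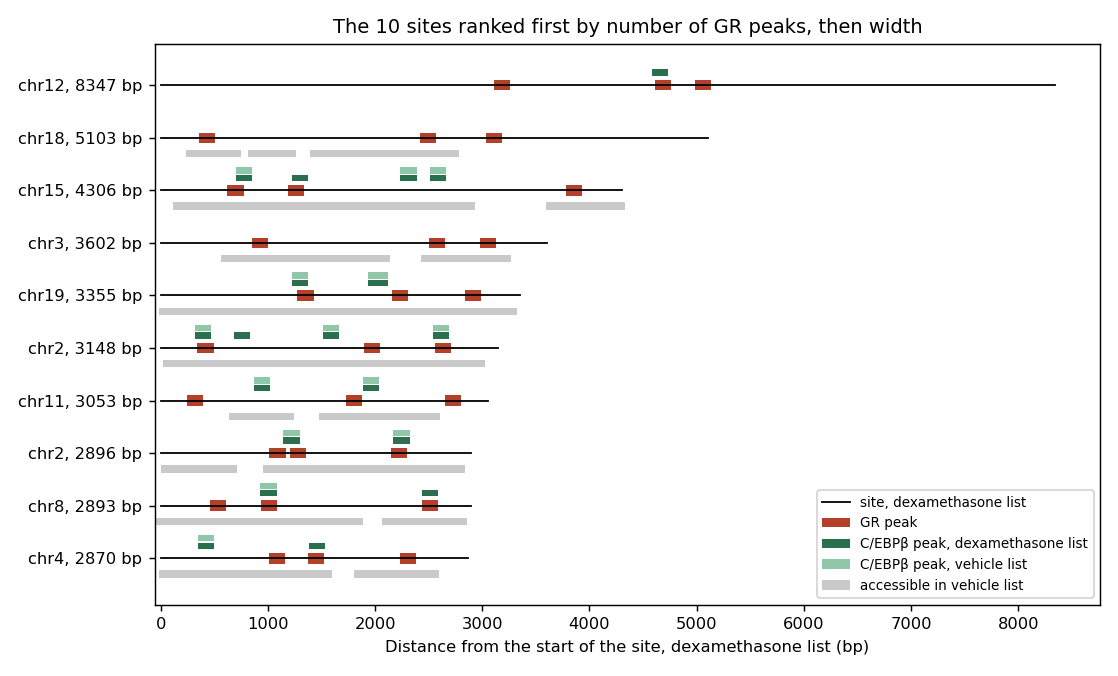
Maps to scale of the 10 sites that come first by number of GR peaks and then by width, each named by chromosome and width; the horizontal axis is the distance from the start of the site in bp. Black lines are the dexamethasone sites, red boxes GR peaks, dark and light green boxes C/EBPβ peaks of the dexamethasone and vehicle lists, and grey bars the vehicle sites; the 8347-bp site has no grey bar, and the 3355-bp site has one of 3341 bp.

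Nearly all multi-GR sites overlapped accessible DNA of the vehicle list. A vehicle site overlapped 622 of 652 multi-GR sites (95.4%, interval 93.5 to 96.8%) and 8180 of 9938 single-GR sites (82.3%). Of all dexamethasone sites, 23.8% were absent from the vehicle list. That gap between the classes went with width. Among 636 multi-GR sites and 9222 single-GR sites in shared 50-bp width bins, the shares in the vehicle list were 95.6% and 96.4%. The Mantel-Haenszel odds ratio over bins was 0.755 (95% interval 0.497 to 1.15), with a Cochran-Mantel-Haenszel p adjusted over 13 comparisons by Benjamini-Hochberg of 0.216. The remaining 16 multi-GR sites had no single-GR site of their width bin and stayed out of these fits.

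Within the multi-GR sites, the usual state was that the GR peaks shared a vehicle site as well. In 473 (72.5%, 69.0 to 75.8%) every GR peak lay in the same vehicle site. In 74 (11.3%) every GR peak lay in a vehicle site, but in 2 or more different ones. In 72 (11.04%) some GR peaks lay in a vehicle site and others did not, in 3 a vehicle site held none of the GR peaks, and 30 (4.60%) overlapped no vehicle site. By GR peaks, 1192 of 1332 (89.5%) in multi-GR sites and 8028 of 9938 (80.8%) in single-GR sites lay in a vehicle site.

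Counted from the vehicle list, the share with GR peaks in a common site was higher. Of the 500 vehicle sites with at least 2 GR peaks, 484 (96.8%) had them all in the same multi-GR site and 15 (3%) had them in 2 or more dexamethasone sites.

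A group of multi-GR sites spanned several vehicle sites. A total of 113 (17.3%) overlapped 2 or more, against 319 single-GR sites (3.21%) and 2.14% of all dexamethasone sites. At equal width the shares were 16.2% and 13.97%, with an odds ratio of 1.13 (0.851 to 1.51, adjusted p = 0.443, n = 636 multi-GR sites, Cochran-Mantel-Haenszel test). The 128 gaps between the vehicle sites under these multi-GR sites were short, with a median of 86.5 bp and an upper quartile of 204 bp, and 22 of them were 0 bp or less, since sites of the vehicle list can touch or overlap. With overlapping vehicle sites merged, 98 multi-GR sites (15.0%) spanned 2 or more.

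Sites that matched one to one between the lists allowed a comparison of width. The 491 matched multi-GR sites had a median of 1294 bp in the dexamethasone list and 1091 bp in the vehicle list, and 392 (79.8%) were wider with dexamethasone. Matched single-GR sites had medians of 790 and 703 bp in the same order of lists, and 5349 of 7622 (70.2%) were wider with dexamethasone. Among matched sites without GR, 16941 of 36268 (46.7%) were. At least a 1.5-fold gain in width was seen in 100 multi-GR sites (20.4%), in 813 of 7622 single-GR sites (10.7%), and in 5.81% of all matched sites. For a given dexamethasone width, however, the vehicle width of 485 multi-GR and 6697 single-GR sites was close: means were 1136 and 1133 bp, and the difference within width bins was 1.05 bp (SE 11.2, interval -22.4 to 24.5 bp, adjusted p = 0.926, n = 485 multi-GR sites, linear fit clustered by chromosome). For the 1.5-fold gain the shares at equal width were 20.2% and 20.6%, with an odds ratio of 0.982 (0.764 to 1.26), a comparison chosen after the values were seen.

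**Figure D3:**
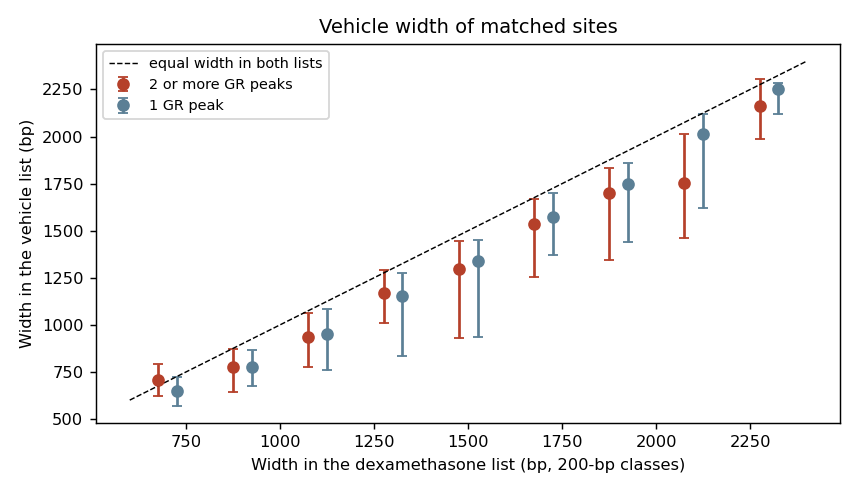
Width in the vehicle list (vertical axis, bp) against width in the dexamethasone list (horizontal axis, bp, 200-bp classes) for sites matched one to one; points are medians and bars quartiles, red for sites with 2 or more GR peaks and blue for sites with 1, and the dashed line is equal width. The mean vehicle widths at equal dexamethasone width were 1136 bp for multi-GR sites and 1133 bp for single-GR sites.

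The matched multi-GR sites with the largest ratio of widths had a small vehicle site under a long dexamethasone one. At chr12:105632905-105637567 the widths were 4662 bp with dexamethasone and 628 bp with vehicle, a ratio of 7.42. This site lies downstream in coordinate of the 8347-bp site of chromosome 12 named above. The next ratios were 3.56 at chr8:93415676-93418220 (2544 and 715 bp), 3.53 at chr3:129281620-129282505 (885 bp with dexamethasone), 3.42 at chr5:151861756-151863518 (1762 and 515 bp) and 3.19 at chr10:68653163-68653985 (822 and 258 bp), where each pair of widths has dexamethasone before vehicle.

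The 30 multi-GR sites absent from the vehicle list had a median width of 961 bp (494 to 8347 bp), against 1369.5 bp over the whole class, and their GR centres had a median spacing of 322 bp. A dexamethasone C/EBPβ peak overlapped 14 of them (46.7%), and a vehicle one 3 (10%). Besides the 8347-bp site, those ranked first by GR number and width were chr9:106132196-106135739 (3543 bp), chr9:48594721-48596169 (1448 bp), chr17:28578405-28579750 (1345 bp) and chr19:36823262-36824549 (1287 bp). On its first GR peak the last of these had C/EBPβ with dexamethasone alone.

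C/EBPβ was found at most multi-GR sites. A dexamethasone C/EBPβ peak overlapped 560 of 652 (85.9%) and 6882 of 9938 single-GR sites (69.2%), against 31.8% of all dexamethasone sites. A vehicle C/EBPβ peak overlapped 500 multi-GR sites (76.7%) and 5673 single-GR sites (57.1%), against 28.0% of all. Both lists had a peak at 498 multi-GR sites (76.4%), the dexamethasone list alone at 62 (9.51%), the vehicle list alone at 2, and neither at 90 (13.8%). Per site, 153 had more C/EBPβ peaks in the dexamethasone list than in the vehicle list, 4 had fewer, and 495 had equal numbers. The dexamethasone list was also longer over the genome. Of its 25392 peaks, 5079 overlapped no vehicle peak, and 2401 of the 22714 vehicle peaks overlapped no dexamethasone peak. These splits by list are not given for single-GR sites, so they are not shown to be particular to multi-GR sites.

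Part of the difference from single-GR sites remained at equal width, and it passed the threshold for the vehicle list. Equal width does not take away the part of the rule, since a multi-GR site has more GR peaks for C/EBPβ to overlap. For the dexamethasone list the shares were 86.2% and 81.9%, and the odds ratio of 1.31 (1.02 to 1.67) missed the threshold of 0.05 at an adjusted p of 0.058; with width deciles it was 1.37 and passed. A vehicle C/EBPβ peak was present at 77.2% of multi-GR and 69.5% of single-GR sites, with an odds ratio of 1.45 (1.19 to 1.79, adjusted p = 0.000822, n = 636 multi-GR sites, Cochran-Mantel-Haenszel test). The share was higher in multi-GR sites than in single-GR sites of their width bins on 15 of 19 chromosomes compared. Held at equal vehicle width instead, among matched sites, the odds ratio was 1.29 (1.01 to 1.65) and did not pass (adjusted p = 0.0831, n = 489 multi-GR sites).

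C/EBPβ peaks that overlapped no peak of the vehicle list lay at 154 multi-GR sites (23.6%) and 1419 single-GR sites (14.3%), against 6.47% of all dexamethasone sites. At equal width the shares were 23.1% and 19.3%, with an odds ratio of 1.20 (0.966 to 1.49, adjusted p = 0.164, n = 636 multi-GR sites, Cochran-Mantel-Haenszel test).

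**Figure D4:**
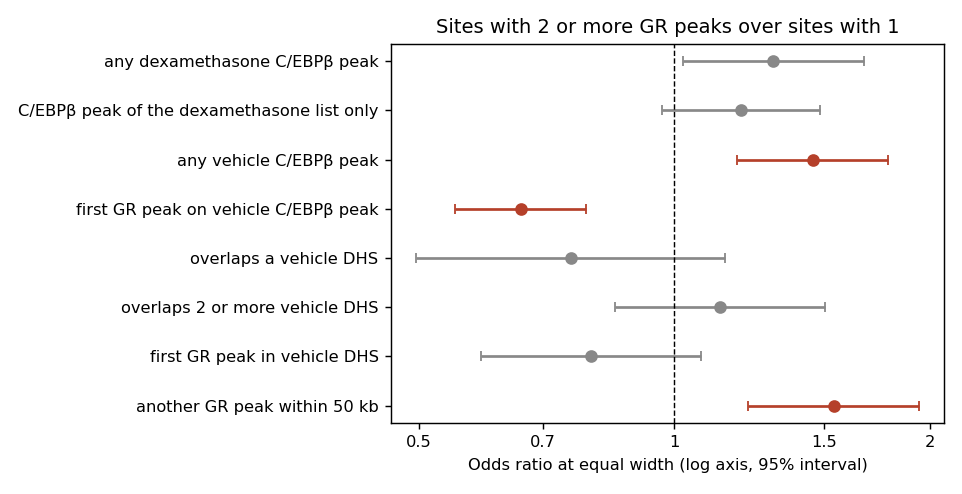
Odds ratios of sites with 2 or more GR peaks over sites with 1 at equal width (horizontal log axis; points with 95% intervals) for 8 yes-or-no measures; red marks an adjusted p under 0.05. Any vehicle C/EBPβ peak (1.45) and another GR peak within 50 kb (1.54) lay above 1, and the first GR peak on a vehicle C/EBPβ peak (0.659) lay below 1.

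Multi-GR sites also held more C/EBPβ peaks each. In the shared width bins they averaged 1.35 dexamethasone peaks per site (SD 0.772), against 1.08 in single-GR sites, and the difference within bins was 0.239 (SE 0.0327, interval 0.170 to 0.307, adjusted p = 8.4e-06, n = 636 multi-GR sites, linear fit clustered by chromosome). In the vehicle list they averaged 1.10 (SD 0.779) against 0.878, a difference of 0.201 (SE 0.0341, adjusted p = 4.77e-05, n = 636, same fit). The first difference was positive on 18 of 19 chromosomes and the second on 15. Over all sites of each class, 85.0% of the dexamethasone C/EBPβ peaks touched a GR peak in multi-GR sites and 85.3% in single-GR sites. Multi-GR sites were chosen for having more GR peaks, and that holds at equal width too. These tests cannot tell an excess of C/EBPβ from that choice of sites.

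The C/EBPβ peaks can also be split by whether they overlapped a GR peak. This split uses the GR peaks that chose the sites, and more GR peaks leave less of a site off GR, so its values are a description with no test. Peaks on GR averaged 1.17 per multi-GR site and 0.7002 per single-GR site in the dexamethasone list, and 0.950 per multi-GR site and 0.570 per single-GR site in the vehicle list. Peaks off GR averaged 0.182 per multi-GR site and 0.383 per single-GR site with dexamethasone, and 0.151 per multi-GR site and 0.308 per single-GR site with vehicle. Per C/EBPβ peak of the dexamethasone list, over all sites of each class, the share on GR was 85.0% in multi-GR and 85.3% in single-GR sites.

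**Figure D5:**
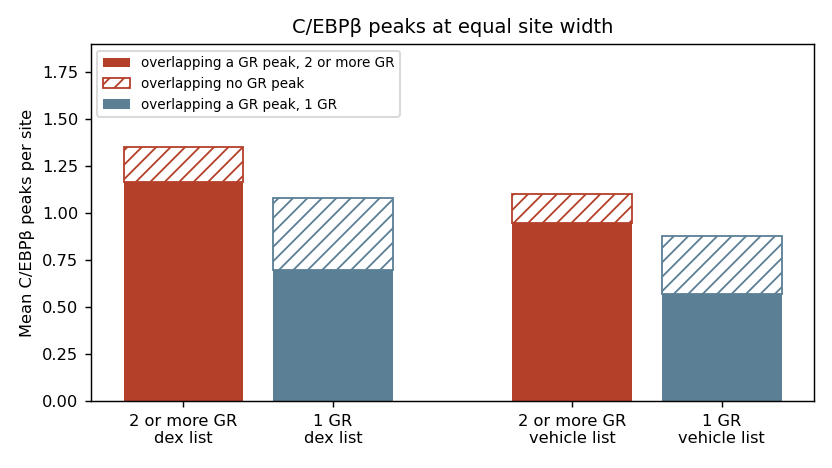
Mean number of C/EBPβ peaks per site (vertical axis) in shared width bins, for sites with 2 or more GR peaks (red) and with 1 (blue), in the dexamethasone list (left) and the vehicle list (right). Filled parts are peaks that overlapped a GR peak and hatched parts peaks that did not; with dexamethasone the filled parts were 1.17 and 0.7002 and the hatched parts 0.182 and 0.383.

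Seen from the first or last GR peak, vehicle C/EBPβ was less frequent in multi-GR sites of equal width, and the raw shares over all GR peaks ran the same way in both lists. A dexamethasone C/EBPβ peak overlapped 760 of their 1332 GR peaks (57.1%) and 6440 of 9938 GR peaks of single-GR sites (64.8%). For vehicle C/EBPβ the counts were 618 (46.4%) and 5247 (52.8%). Taking only the first GR peak of each site by position, 46.2% in multi-GR sites and 56.5% in single-GR sites of equal width had vehicle C/EBPβ, an odds ratio of 0.659 (0.551 to 0.787, adjusted p = 2.46e-05, n = 636 multi-GR sites, Cochran-Mantel-Haenszel test). The odds ratio was 0.688 with the last GR peak, which passed too, and 0.818 with the one nearest the centre of the site, which did not (adjusted p = 0.0529, n = 636). In a multi-GR site the first and last GR peaks are its outer ones by definition. Its vehicle C/EBPβ peaks, a mean of 1.10 against 0.878 at equal width, are also set against more GR peaks. These odds ratios cannot tell less C/EBPβ per GR peak from that choice of sites. For the first GR peak lying in a vehicle site the shares were 90.3% and 92.0%, with an odds ratio of 0.799 (0.593 to 1.08, adjusted p = 0.18, n = 636). With the last GR peak taken in place of the first, that odds ratio was 0.713 and passed the threshold (adjusted p = 0.0397, n = 636), and with the one nearest the centre it was 1.08.

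With all spacings pooled, the GR peaks of a pair carried the dexamethasone or vehicle C/EBPβ peaks with little relation to each other. The relation is not given by class of spacing, and the share with C/EBPβ at both differed between those classes, as described below. The pooled values therefore cannot tell whether the GR peaks of a pair were related at a given spacing. Among the 624 sites with 2 GR peaks, dexamethasone C/EBPβ lay at both in 203 (32.5%), at 1 in 310 (49.7%) and at neither in 111 (17.8%). Where the first GR peak had dexamethasone C/EBPβ, the last had it in 203 of 361 sites (56.2%), and where the first lacked it, in 152 of 263 (57.8%). The phi coefficient across these 624 sites was -0.02 for the dexamethasone list and -0.02 for the vehicle list, given as a description since the peaks of a pair share their site. In the vehicle list 132 sites (21.2%) had C/EBPβ at both, 317 (50.8%) at 1 and 175 (28.04%) at neither. For dexamethasone-only C/EBPβ phi was 0.09: the last GR peak had it in 13 of 77 sites (16.9%) where the first did, and in 48 of 547 (8.78%) where the first did not.

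Over all spacings together, C/EBPβ on a single GR peak was thus the most frequent state of the pairs in both lists, which need not hold within each class of spacing. The 28 sites with 3 GR peaks varied in the same way: dexamethasone C/EBPβ lay at none in 4, at 1 in 10, at 2 in 8 and at all 3 in 6. In the whole class 889 dexamethasone C/EBPβ peaks were counted, of which 756 touched a GR peak. Of the other 133, 54 (40.6%) lay between GR centres.

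The share of pairs with C/EBPβ at both GR peaks differed between classes of GR spacing, given here as a description with no test. With GR centres under 300 bp apart, 27 of 135 sites (20%, 14.1 to 27.5%) had dexamethasone C/EBPβ at both GR peaks, against 57 of 208 (27.4%) at 300 to 500 bp and 119 of 281 (42.3%, 36.7 to 48.2%) at 500 bp or more. The share with C/EBPβ at 1 or both hardly moved over the same classes, at 79.3%, 81.2% and 84.3%. A shared vehicle site for the whole pair was found in 88.9%, 84.1% and 59.1% of the same classes. Sites with wider spacing were wider too, and the part of width in this trend was not tested.

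Sites that were accessible at some of their GR peaks and not at others without the drug allow a comparison within a site. In these 72 sites, 73 GR peaks lay outside vehicle sites and 76 inside. Dexamethasone C/EBPβ overlapped 20 of the outside peaks (27.4%) and 48 of the inside peaks (63.2%). Vehicle C/EBPβ overlapped 3 outside (4.11%) and 41 inside (53.9%). C/EBPβ peaks of the dexamethasone list alone ran the other way, at 17 outside (23.3%) and 7 inside (9.21%).

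In the 67 of these sites with 2 GR peaks, each with 1 outside and 1 inside, the pairs could be tested against each other. Dexamethasone C/EBPβ lay at the outside peak alone in 8 sites and at the inside peak alone in 32 (two-sided exact McNemar test, adjusted over 3 such tests, p = 0.000273). Vehicle C/EBPβ lay at the outside peak alone in 0 and at the inside peak alone in 35 (adjusted p = 1.75e-10, same exact test). The dexamethasone-only peaks lay at the outside peak alone in 15 and at the inside peak alone in 4 (adjusted p = 0.0192, same exact test). These tests were chosen after the data were seen. A GR peak that already had vehicle C/EBPβ has little room for a dexamethasone-only one: among GR peaks without vehicle C/EBPβ, dexamethasone C/EBPβ lay at 17 of 70 outside (24.3%) and 7 of 35 inside (20%).

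The 58 of these sites with a one-to-one match were a median of 1.796 times as wide with dexamethasone as with vehicle (1.14 to 3.53). Across all vehicle states, dexamethasone-only C/EBPβ was found at 88 of the 473 sites whose GR peaks shared a vehicle site (18.6%), at 27 of the 74 over several vehicle sites (36.5%), at 25 of the 72 with some GR peaks outside (34.7%), at 3 of the 3 whose vehicle site held no GR peak, and at 11 of the 30 without a vehicle site (36.7%). Median widths of these states ran from 961 bp (no vehicle site) to 1816 bp (several vehicle sites). Vehicle C/EBPβ ran from 10% of sites (no vehicle site) to 82.7% (a shared vehicle site). The part of either in these shares was not tested.

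At most 2 dexamethasone-only C/EBPβ peaks lay in a multi-GR site, and 19 sites had 2. The first of these by width were chr8:96702438-96707671 (5233 bp), whose GR centres stood 3573 bp apart, the widest spacing of the class, chr5:90902802-90907531 (4729 bp), chr6:71940305-71942536 (2231 bp), chr8:96886369-96888460 (2091 bp) and chr10:80126306-80128251 (1945 bp). All but chr8:96886369-96888460 had no vehicle C/EBPβ peak, and that one had 3 dexamethasone peaks and 1 vehicle peak. At chr6:71940305-71942536 and chr10:80126306-80128251 both C/EBPβ peaks lay on GR peaks. The site at chr10:80126306-80128251 was 1945 bp wide with dexamethasone and 1973 bp with vehicle.

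Further GR peaks were more frequent around multi-GR sites. At least 1 other GR peak outside the site lay within 50 kb of 83.6% of multi-GR sites and 75.6% of single-GR sites of equal width, an odds ratio of 1.54 (1.22 to 1.94, adjusted p = 0.00073, n = 636 multi-GR sites, Cochran-Mantel-Haenszel test). That share was higher in multi-GR sites on 12 of 19 chromosomes. The number of these other GR peaks averaged 3.15 (SD 2.91) against 2.62, a difference within bins of 0.476 (SE 0.149, interval 0.165 to 0.787, adjusted p = 0.0101, n = 636 multi-GR sites, linear fit clustered by chromosome). Other dexamethasone sites within 50 kb averaged 8.46 against 8.07, and that difference of 0.353 (-0.0985 to 0.805) did not pass (adjusted p = 0.171, n = 636). Both numbers of neighbours were chosen for a test after the data were seen. The neighbouring GR peaks come from the same list that chose the sites. Their values describe how GR peaks cluster and are no separate support for the class.

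Multi-GR sites were spread over the genome. They fell in 595 windows of 100 kb, of which 547 held 1 and 42 held 2. A window of chromosome 2, singled out after its count was seen, held 5, with 10 GR peaks between 32242990 and 32280950. These 5 were 1125 to 1871 bp wide, 4 of them overlapped a vehicle site and had C/EBPβ in both lists, and chr2:32275504-32276629 had neither a vehicle site nor a C/EBPβ peak. Another multi-GR site lay within 50 kb of 125 multi-GR sites (19.2%), and 1414 single-GR sites (14.2%) had a multi-GR site within that distance.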

How the data were processed

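The authors deposited 5 lists of positions (start and end per interval, build mm9 per the submitters' processing notes, which also name CASAVA 1.8): 63473 dexamethasone and 56794 vehicle DNase sites, 25392 dexamethasone and 22714 vehicle C/EBPβ peaks, and 11666 GR peaks. They carry no height, score or per-sample value. Not given in the sources used here were the aligner, the peak caller, its threshold and any pooling of samples. Dropping 3 duplicate rows left 63470 dexamethasone sites. Adjacent sites that overlapped each other numbered 887 in the dexamethasone list and 665 in the vehicle list. The rule counted overlapping dexamethasone sites as separate sites, and the effect of merging them is not given. The series has 32 samples in 16 groups.

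Intervals were treated as half-open, and 1 shared bp counted as overlap. A dexamethasone-only C/EBPβ peak overlapped no vehicle C/EBPβ peak (5079 peaks). Multi-GR and single-GR sites were compared in 50-bp bins of dexamethasone width: yes-or-no measures by Mantel-Haenszel odds ratios with Cochran-Mantel-Haenszel p, numbers and widths by a linear fit with bin effects and errors clustered by chromosome, two-sided. Benjamini-Hochberg adjustment ran over 13 comparisons (6 passed 0.05). Means printed are over the sites in shared bins; the fitted difference weights bins and so departs slightly from the difference of means. Intervals beside shares are 95% Wilson intervals, which hold the counting error alone. The McNemar tests were adjusted over 3.

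The sites, lists and tests were chosen with earlier results of these data known. Sites were named by fixed ranks: most GR peaks then width (10 sites), the same among sites absent from the vehicle list (5), most dexamethasone-only C/EBPβ peaks (5), largest width ratio (5), and 3 on each side of the rule. The fits were tested on simulated data. Genes, motifs and sequences were not used here. Python 3.11.15, numpy 2.4.6, pandas 2.3.3, scipy 1.17.1 and matplotlib 3.10.9 were used.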

Additional observations from a re-analysis of the deposited data

How the results depend on the processing

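Of 140 alternative values other than those leaving out a chromosome, 122 kept direction and side of the threshold. Without width bins, the odds ratios were 4.46 for a vehicle site (reversed), 6.32 for 2 or more vehicle sites, 2.70 for dexamethasone C/EBPβ, 1.86 for dexamethasone-only C/EBPβ and 2.11 for the first GR peak in a vehicle site (reversed); the vehicle width difference was 375 bp, and other dexamethasone sites within 50 kb differed by 0.589. By construction these values carry the width of the sites. With 10 width deciles the odds ratio for a vehicle site was 1.03 and the vehicle width difference -1.51 bp (both reversed, neither past the threshold), and that for dexamethasone C/EBPβ was 1.37 and passed, as it did with the GR centre inside the site (1.34) and with an overlap of at least 50% of the shorter interval (1.35). The first GR peak on vehicle C/EBPβ gave 0.818 with the GR peak nearest the centre (adjusted p = 0.0529, n = 636). The first GR peak in a vehicle site gave 0.713 (past the threshold) with the last GR peak and 1.08 (reversed) with the one nearest the centre. With 3 or more GR peaks, 22 sites were left, and vehicle C/EBPβ gave 4.76 (adjusted p = 0.153) and the first GR peak on vehicle C/EBPβ 0.762 (adjusted p = 0.657, n = 22 for both). At equal vehicle width vehicle C/EBPβ gave 1.29 (adjusted p = 0.0831, n = 489). Apart from the width bins and the fewer sites, the cause was not tested. With the GR centre inside the site, the rule found 649 sites. Merging overlapping vehicle sites and leaving out sites over 3000 bp were added after seeing the data and changed no call.

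Leaving out each chromosome in turn kept 248 of 260 values and ended no call. The odds ratios ran from 0.687 to 0.856 for a vehicle site, 1.03 to 1.23 for 2 or more vehicle sites, 1.25 to 1.39 for dexamethasone, 1.15 to 1.26 for dexamethasone-only and 1.40 to 1.53 for vehicle C/EBPβ, 0.633 to 0.689 for the first GR peak on vehicle C/EBPβ, 0.724 to 0.872 for the first GR peak in a vehicle site, and 1.47 to 1.61 for another GR peak within 50 kb. The differences ran from 0.222 to 0.254 for dexamethasone and 0.186 to 0.217 for vehicle C/EBPβ peaks, -4.47 to 6.53 bp for vehicle width, 0.363 to 0.537 for other GR peaks and 0.252 to 0.442 for other dexamethasone sites. Dexamethasone C/EBPβ passed with some chromosomes left out (adjusted p 0.0196 to 0.139).

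No paired analysis was possible because the lists carry no value per sample. The planned motif search was not run. Without heights, a site missing from a list cannot be told apart from one just under its threshold.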

Other observations

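Width alone did not fix the number of GR peaks. Of the 247 dexamethasone sites of 2000 to 3000 bp, 59 held 2 or more GR peaks, 83 held 1 and 105 held none. Of the 41 sites of 3000 bp or more, 18 held 2 or more, 9 held 1 and 14 held none. Among GR-bound sites, the share with several GR peaks ran from 3.64% on chromosome 19 to 7.29% on chromosome 15 among the autosomes, and was 3.12% on chromosome X, where 3 multi-GR sites lay.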
